A study of Homo sapiens with 6 samples.

Results

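Plasma cells and the myeloma cells derived from them secrete large amounts of antibody, and 39 genes that serve this output in the endoplasmic reticulum (ER) are described here across the 6 arrays of the study. They comprise 12 chaperones and co-chaperones, 5 oxidoreductases, 7 translocon genes, 4 signal peptidase genes, 4 genes of ER-associated degradation, 4 antibody-secretion genes and 3 sensors of ER stress. The members were given as a list and matched by Entrez identifier to probe sets annotated to exactly 1 gene. Of the 39, 37 had such a probe set, out of 19777 genes with one on the array. In all, 36 members passed the filter on low values, out of 12663 genes that did so. The SEC61 subunit SEC61G and the ubiquitin ligase SYVN1 had no probe set annotated to 1 gene alone, and the oxidase ERO1B lay below the filter, which kept genes with a mean log2(value + 16) of at least 7.34, a value of about 146.

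The RNA came from the established myeloma line JJN3, of human origin. For 3 arrays the cells received a short hairpin RNA (shRNA) that targets CKS1B, a partner of cyclin-dependent kinases and cofactor of a ubiquitin ligase. For the other 3 they received a scrambled shRNA, and both hairpins were brought in by viral transduction. The arrays of a group are lettered A, B and C, in which order all values are given, and the label of scrambled array B has an extra word, "poly", that is not explained. Whether the arrays came from separate cultures is not stated in the labels. The p-values therefore measure only how much these arrays differ, which may be a technical spread, and 3 arrays a group limit the precision.

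Proteins bound for secretion enter the ER through the SEC61 channel, lose their signal peptide to the signal peptidase complex, and fold with the help of chaperones and of enzymes that form disulfide bonds. Chains that fail to fold are returned to the cytosol and degraded by the proteasome. When unfolded protein builds up, the membrane sensors ERN1 (IRE1), EIF2AK3 (PERK) and ATF6 start the unfolded protein response, in which XBP1 and ATF6 bind short promoter motifs of chaperone genes. Plasma cells depend on the XBP1 branch for antibody secretion.

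The promoters of 5 chaperone genes are shown because they hold motifs through which this response is known to act. Each is the 250 bases before the RefSeq start of the gene in build GRCh38.p14, 5′ to 3′ on the strand of the gene, with the motif in capitals. HSPA5 lies at chr9:125241344-125241593 (minus strand), HSP90B1 at chr12:103930160-103930409 (plus strand), CRELD2 at chr22:49918384-49918633 (plus strand), SDF2L1 at chr22:21642052-21642301 (plus strand) and DNAJC10 at chr2:182716007-182716256 (plus strand).
HSPA5: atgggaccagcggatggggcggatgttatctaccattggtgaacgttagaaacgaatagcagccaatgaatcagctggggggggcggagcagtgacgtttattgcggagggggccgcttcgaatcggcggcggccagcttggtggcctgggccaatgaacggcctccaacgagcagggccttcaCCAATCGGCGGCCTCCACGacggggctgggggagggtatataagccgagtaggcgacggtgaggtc
HSP90B1: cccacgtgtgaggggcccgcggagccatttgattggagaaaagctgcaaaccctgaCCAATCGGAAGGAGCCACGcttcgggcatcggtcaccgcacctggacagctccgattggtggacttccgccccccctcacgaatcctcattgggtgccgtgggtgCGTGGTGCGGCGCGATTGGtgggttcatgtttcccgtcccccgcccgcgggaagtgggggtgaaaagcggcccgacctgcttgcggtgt
CRELD2: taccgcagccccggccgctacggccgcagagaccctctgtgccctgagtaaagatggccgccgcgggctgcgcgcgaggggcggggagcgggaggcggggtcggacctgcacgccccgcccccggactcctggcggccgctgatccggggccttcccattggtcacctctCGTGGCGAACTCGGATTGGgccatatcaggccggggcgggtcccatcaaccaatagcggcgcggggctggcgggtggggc
SDF2L1: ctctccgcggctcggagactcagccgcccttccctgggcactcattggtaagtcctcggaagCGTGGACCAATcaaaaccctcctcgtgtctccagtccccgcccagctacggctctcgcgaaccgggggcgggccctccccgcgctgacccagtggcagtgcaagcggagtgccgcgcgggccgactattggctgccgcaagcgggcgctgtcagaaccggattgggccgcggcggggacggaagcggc
DNAJC10: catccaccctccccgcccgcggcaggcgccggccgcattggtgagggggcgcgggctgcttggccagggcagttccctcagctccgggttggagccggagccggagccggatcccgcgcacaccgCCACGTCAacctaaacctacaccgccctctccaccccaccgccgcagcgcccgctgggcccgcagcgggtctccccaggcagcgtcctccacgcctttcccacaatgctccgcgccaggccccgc
The capitals mark the ER stress element (ERSE) in HSPA5, HSP90B1 and CRELD2, the element ERSE-II in SDF2L1, and the unfolded protein response element (UPRE) in DNAJC10. In HSP90B1 the first match lies on the strand shown and the second on the opposite one, and those of CRELD2, SDF2L1 and DNAJC10 are also on the opposite strand.

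Exact matches were sought on both strands of windows of 250 bases before and 50 from the start on, for 27305 RefSeq genes, among them 36 of the 39 members. ERSE, here CCAAT, 9 bases of any kind, then CCACG, was found in 0.0806% of all windows and in 6 members (16.7%), which were HSPA5, HSP90B1, CRELD2, CALR, CANX and ERO1B. ERSE-II, here ATTGG, 1 base of any kind, then CCACG, was in 0.0549% of all windows and in 3 members (8.33%), HYOU1, SDF2L1 and HERPUD1. UPRE, here TGACGTGG, was in 0.795% of all windows and in 2 members (5.56%), HYOU1 and DNAJC10, and in HYOU1 it overlaps 1 of its 2 ERSE-II matches. Among genes outside the list, ERSE was also found at XBP1, SERP1, TMEM120A, EIF2A and FICD, among others. These matches describe the sequence only, and a window with none says only that these letters are not in it.

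**Figure D1:**
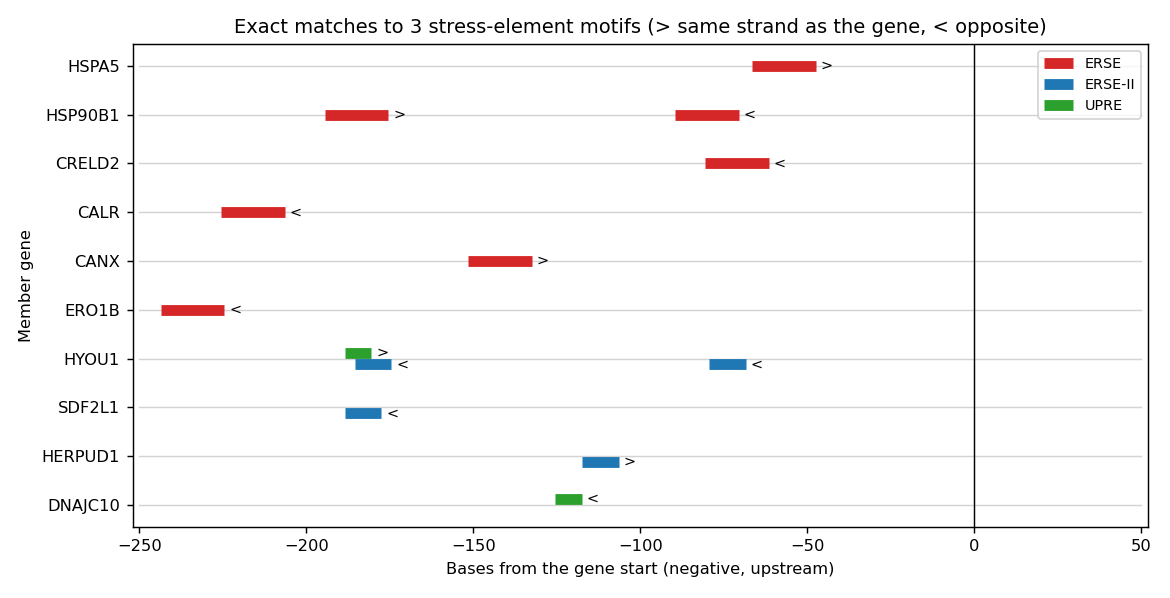
Position of exact matches to ERSE, ERSE-II and UPRE in the promoter windows of the members that hold one, as bases relative to the start of the gene (x axis), one gene a line. The HSPA5 match lies 66 to 48 bases before the start and the 2 of HSP90B1 lie 194 to 176 and 89 to 71 bases before it.

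CKS1B, the target of the hairpin, read 8266, 8441 and 7294 with the scrambled hairpin against 481, 269 and 828 with the CKS1B hairpin. The groups lay far apart, and the means were 8000.2 ± 618 and 526 ± 282 (SD, n = 3). By a two-sided exact permutation test p was 0.1, which is the minimum for 3 arrays against 3. All levels here are MAS5 intensities on a linear scale. Differences subtract the scrambled from the CKS1B shRNA mean of log2(value + 16), and the added 16 shrinks the differences of dim genes. On that scale CKS1B differed by -4.02 (SE 0.44, limma adjusted p = 0.246) with 6 arrays, and fell by 3.63 (SE 0.26, limma adjusted p = 0.00126) without CKS1B shRNA array B.

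CKS1B shRNA array B stood apart, so the differences are given with and without it. Its Pearson correlation with the other arrays was 0.577 to 0.610 over all probe sets, against 0.879 to 0.958 among the other 5. Its ratio of 3′ to 5′ actin signal, commonly read as a sign of RNA integrity, was 12.4, against 1.05 to 2.93 on the others, and its 99th percentile was 5414, against 9520 to 14057. Spiked control transcripts, which do not come from the cells, were uneven there too. A probe set for the 3′ end of cre read 469 on this array against 15653 to 80313 on the others, while another for the same end read 34972 against 9434 to 55458. For bioD the 2 probe sets read 12832 and 1061 on this array, and on the others the second was the higher. Of the plasma cell markers, 6 of 7 passed the filter, SLAMF7 did not, and their summed values ran from 16532 to 21644 with the scrambled shRNA and from 13093 to 24557 with the CKS1B shRNA. Of the B cell markers, 5 of 6 had a probe set and 3 passed the filter, with sums of 6185 to 8782 and 5232 to 8809. The B cell factors PAX5 and BLK lay below the filter, while MS4A1 (CD20) read 5426, 7996 and 7216 with the scrambled shRNA and 5172, 4578 and 7718 with the CKS1B shRNA. All 4 T cell markers with a probe set passed the filter, and their sum was 3363 on CKS1B shRNA array B against 630 to 1346 on the other 5 arrays. On array B CD3D, CD3E and CD2 read 1219, 1235 and 870.5, each its highest value, while CD8A read 38.7, its lowest. The filter used the mean over all 6 arrays, so these readings on array B counted in it. Sums of stromal markers (3 of 5 above the filter), myeloid markers (1 of 5) and erythroid markers (1 of 4) were also highest on that array, at 2042, 958 and 799, against at most 1458, 792 and 679.8 on the other arrays. No marker was at 0, and the part of these shifts in the results below was not tested.

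On CKS1B shRNA array B the secretory genes stood low as a group by the probe sets used, while arrays A and C did not show this. On array B 29 of the 36 members (80.6%) read below all 3 scrambled arrays, as did 41.9% of all genes tested, and 6 read above all 3 (16.7%, against 39.4% of all genes). On array A 28 members (77.8%) read above all 3 scrambled arrays and 5 (13.9%) below, against 24.9% and 29.4% of all genes. On array C 16 (44.4%) read above and 12 (33.3%) below, against 30.3% and 30.9%. As a percentage of the scrambled mean, the median of the tested members stood at 118% on array A, 24.5% on array B and 106% on array C. Over the tested members, by the probe sets used, the range on array B ran from 0.74% for DNAJC3 to 197% for PDIA6. Over all their probe sets above the filter, DNAJC3 ran from 0.74% to 209% there and PDIA6 from 18.9% to 197%. For PDIA6 the high value on array B itself counted in the choice of the brightest probe set. These are bulk RNA measurements, in which fewer cells making a transcript and less of it per cell cannot be told apart.

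**Figure D2:**
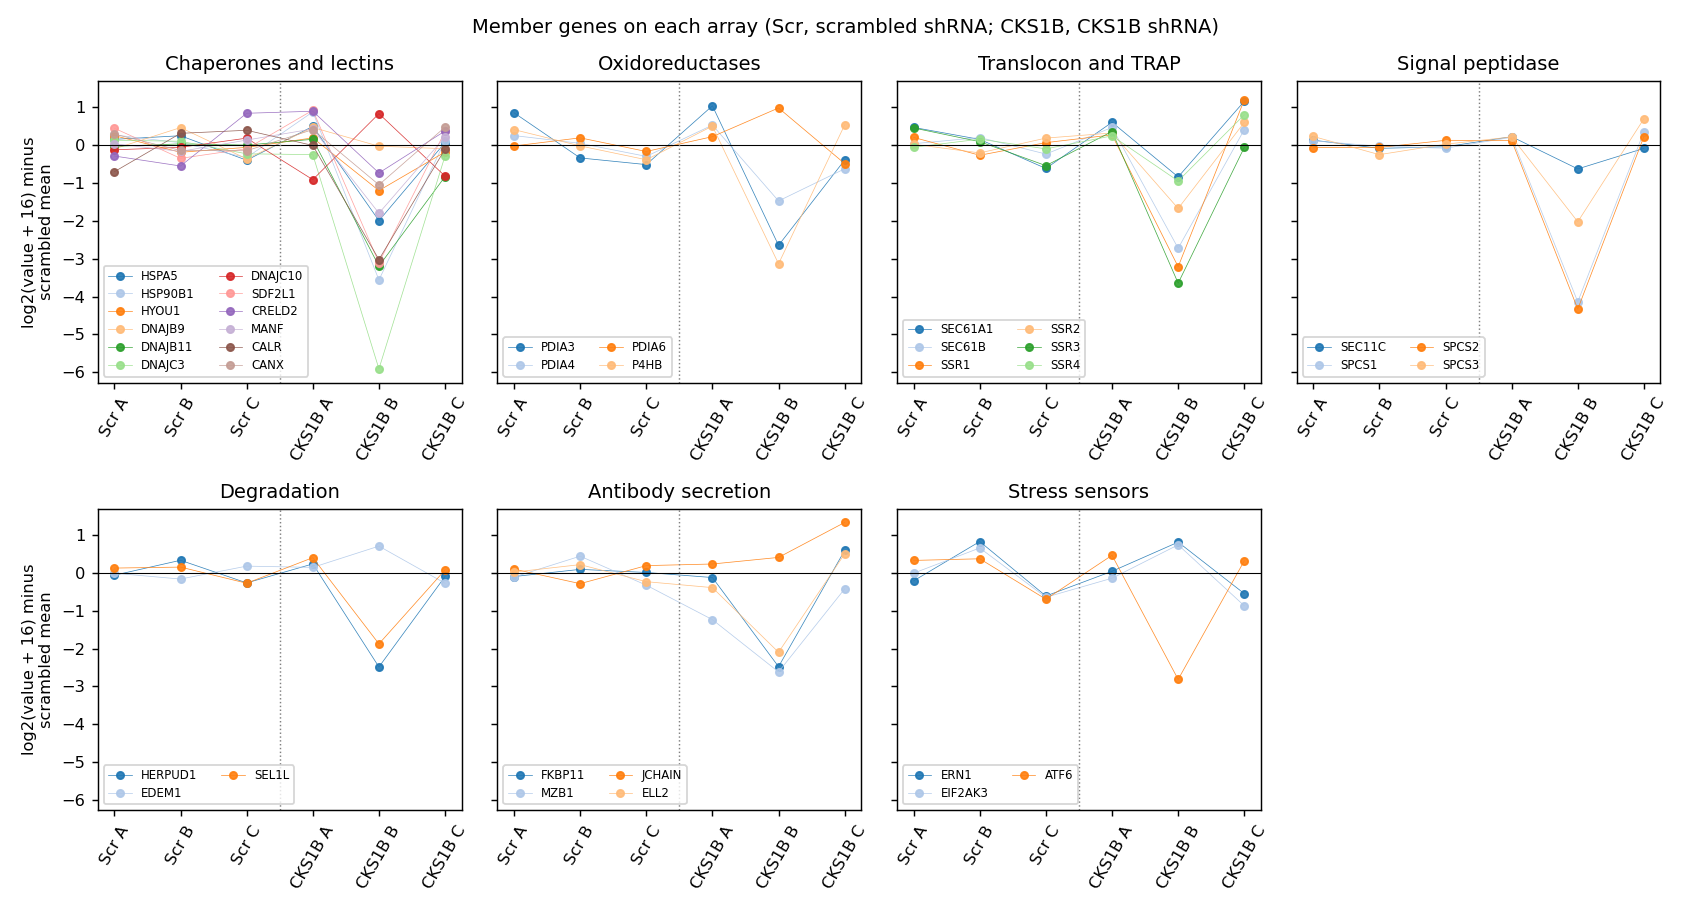
Log2(value + 16) of each tested member minus its mean over the 3 scrambled arrays (y axis) on the 6 arrays (x axis), by role. For a scrambled array, the mean is over the other scrambled arrays. Each point is 1 gene on 1 array, and lines only join the points of a gene. Less the median of all genes tested, which is not subtracted in the plot, the members' median was -2.02 on CKS1B shRNA array B. Arrays A and C had 0.28 and 0.11.

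By the probe sets used, the low position on array B was shared by all roles except the stress sensors. Medians of a role here are log2 shifts from the scrambled mean, less the median shift of all genes tested on the same array. On array B they were -3.09 for the signal peptidase genes, -2.30 for the antibody-secretion genes and -2.21 for the translocon. They were -2.07 for the oxidoreductases, -1.91 for the chaperones and -1.89 for the degradation genes. The 3 sensors had a median of 0.72 on that array, with ATF6 low and ERN1 and EIF2AK3 high by the probe sets used. The median value of array B was 334, against 117.5 to 201.8 on the other arrays. The dimmest tested members, ERN1, EDEM1 and EIF2AK3, with scrambled means of 320, 819 and 944, all read high on array B. The brighter DNAJC10, PDIA6 and JCHAIN, at 2363, 8997 and 15064, read high there as well by the probe sets used. The part of brightness in the contrast between roles was not tested. On array A the medians ran from -0.22 for the antibody-secretion genes to 0.56 for the oxidoreductases. On array C they ran from -0.53 for the sensors to 0.72 for the translocon, with the chaperones at 0.00. The choice of probe sets also moved the median differences with 6 arrays. That of the degradation genes went from -0.47 to 0.19 with the mean of probe sets. That of the translocon went from -0.42 to 0.032 with probe sets whose name has no suffix. Those of the chaperones, oxidoreductases, signal peptidase and antibody-secretion genes stayed negative under both choices.

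With 6 arrays no member passed the test. Log2 differences ran from -2.15 for DNAJC3 to 0.66 for JCHAIN, 28 members were lower and 8 higher, and the median was -0.50, against -0.078 over all genes. The limma adjusted p of the members lay between 0.933 and 0.993, and 0% of all genes passed the threshold of 0.05 after adjustment. At an unadjusted p under 0.05 stood 1 member, MZB1, and 2.95% of all genes. JCHAIN alone had all CKS1B shRNA arrays above all scrambled arrays, as did 4.94% of all genes. MZB1 and DNAJC3 had them all below, as did 6.41% of all genes. The shares of the members in these counts were 2.78%, 2.78% and 5.56%, below those of all genes.

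Without array B of the CKS1B shRNA the direction of most members turned. Of the 36, 26 were higher and 10 lower, the median was 0.24 against -0.036 over all genes, and log2 differences ran from -0.87 for DNAJC10 to 0.88 for SEC61A1. Again no member passed the test (limma adjusted p 0.408 to 0.996), while 5 of 12663 genes did (0.0395%). An unadjusted p under 0.05 was reached by 8 members (22.2%), which were DNAJC10, SDF2L1, P4HB, SEC61A1, SSR1, SSR4, MZB1 and JCHAIN, and by 9.49% of all genes. The groups did not overlap, with the CKS1B shRNA arrays higher, in 14 members (38.9%) and 13.6% of all genes, and with them lower in 3 members (8.33%), DNAJC3, DNAJC10 and MZB1, and 14.4% of all genes. In all, 24 members had the opposite sign without this array, 21 of them turning from lower to higher.

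**Figure D3:**
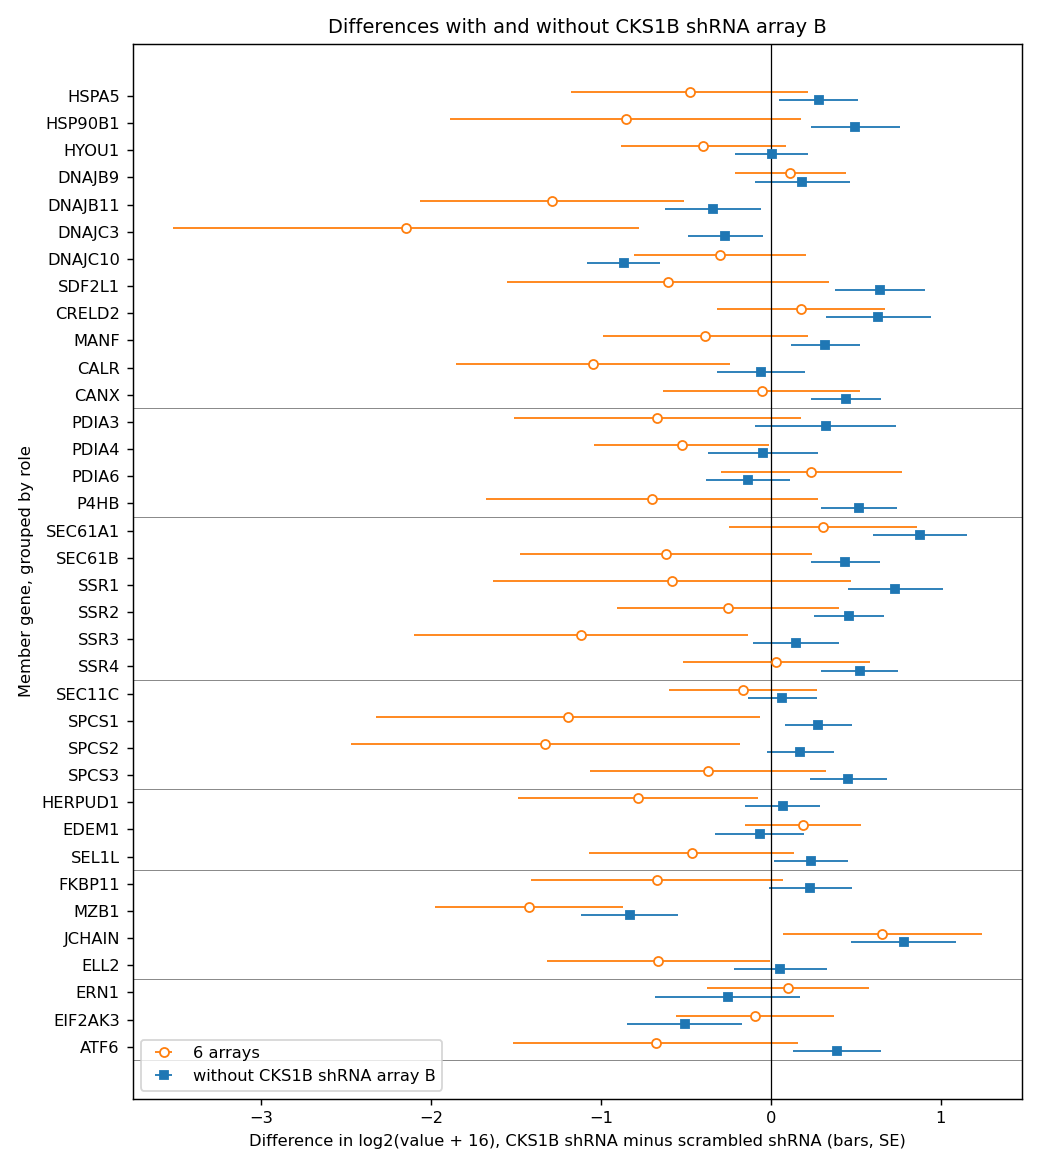
Log2 difference of each tested member, CKS1B shRNA minus scrambled shRNA, with 6 arrays and without CKS1B shRNA array B (x axis), one gene a line, with SE bars from limma. The 6-array values run down to -2.15 with wide bars, while the 5-array values lie between -0.87 and 0.88.

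The higher direction on arrays A and C depended on the scaling of the arrays. After quantile normalization, which gives all arrays 1 distribution of values, 18 members were higher and 18 lower without array B, and the median was -0.0037, against -0.0071 for all genes. The groups then did not overlap in 3 members on the higher side, against 12.7% of all genes, and in 3 on the lower side, against 14.2%. The bright end of CKS1B shRNA array C was wider than that of the scrambled arrays, with a 99th percentile of 14057 against 9520 to 10483. Centring each array on its median moved the median of all genes from -0.036 to 0.16 and that of the members from 0.24 to 0.43. Centring shifts every gene alike, so the members' distance to all genes could not change and was 0.27 either way. Under all 3 scalings 18 members were higher, 6 were lower (DNAJB11, DNAJC3, DNAJC10, MZB1, ERN1 and EIF2AK3) and 12 changed sign. The groups stayed apart under all 3 in SEC61A1, which was higher, and in DNAJC10, which was lower.

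Among the chaperones, 2 of 12 were higher and 10 lower with 6 arrays, and 8 higher and 4 lower without array B, with none past the test either way. HSPA5 (BiP) is the main Hsp70 of the ER, holds unfolded chains and keeps the sensors inactive. It read 10754, 11235 and 8328 with the scrambled hairpin against 14128, 2502 and 10496 with the CKS1B hairpin. Array A was above and array B far below the scrambled range, array C was inside it, and the difference was -0.48 (SE 0.70) with 6 arrays and 0.28 (SE 0.23, limma adjusted p = 0.695) without array B, where quantile normalization turned it to -0.031. HSP90B1 (GRP94), the Hsp90 of the ER and the gene with 2 ERSE matches above, read 4208, 3822 and 3188 with the scrambled hairpin against 6838, 300.1 and 4033 with the CKS1B hairpin. Its array A stood above every scrambled array, array C lay between scrambled A and B, and array B was at 8.03% of the scrambled mean. The differences were -0.86 (SE 1.03) and, without array B, 0.50 (SE 0.26, limma adjusted p = 0.562).

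DNAJC10 (ERdj5), a reductase that opens disulfide bonds of chains bound for degradation, ran the other way. It read 2225, 2295 and 2569 with the scrambled hairpin against 1245, 4207 and 1329 with the CKS1B hairpin. Arrays A and C were below every scrambled array, by a log2 difference of -0.87 (SE 0.21, limma adjusted p = 0.408), and array B was above them all, which left -0.30 (SE 0.51) with 6 arrays. All 4 of its probe sets above the filter, including -1.19, -0.95 and -0.68 for the 3 not used above, were lower without array B. SDF2L1, which has ERSE-II in its promoter and works with the J-domain protein DNAJB11, read 1685, 1162 and 1309 with the scrambled hairpin against 2608, 145 and 1764 with the CKS1B hairpin. Arrays A and C were above every scrambled array and array B was at 10.5% of their mean, and the values differed by -0.61 (SE 0.95) over 6 arrays and by 0.64 (SE 0.27, limma adjusted p = 0.504) without array B.

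The J-domain proteins DNAJB11 and DNAJC3, which steer HSPA5, had the smallest p of the chaperones with 6 arrays. DNAJB11 (ERdj3) read 4112, 4238 and 4178 with the scrambled hairpin against 4645, 442 and 2341 with the CKS1B hairpin. Arrays B and C were below the scrambled range and array A above it, for a difference of -1.29 (SE 0.78) with 6 arrays and -0.34 (SE 0.28) without array B. DNAJC3 (p58IPK) read 1821, 1797 and 1540.2 with the scrambled hairpin against 1438, 12.8 and 1405 with the CKS1B hairpin. Every scrambled array was above arrays A and C, by little, and array B was at 0.74% of their mean, for -2.15 (SE 1.37) and -0.27 (SE 0.22). Another probe set of DNAJC3 read 995 on array B.

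Of the other 6 chaperones, with 6 arrays the lectin chaperone CALR differed by -1.05, HYOU1 by -0.40, MANF by -0.39, CANX by -0.055, DNAJB9 by 0.11 and CRELD2 by 0.18. Without array B, the ER stress gene CRELD2 differed by 0.63, the membrane lectin chaperone CANX by 0.44, the secreted stress protein MANF by 0.32, DNAJB9 (ERdj4) by 0.19, the Hsp110 relative HYOU1 by 0.0043 and CALR by -0.058. CANX and MANF had arrays A and C above all scrambled arrays, and CRELD2, DNAJB9, HYOU1 and CALR overlapped. The scrambled arrays of CALR themselves ran from 4369.7 to 7254.

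The oxidoreductases form and reshuffle disulfide bonds. Of the 4 tested, 1 was higher and 3 lower with 6 arrays, and 2 and 2 without array B, with none past the test. P4HB (PDI), which also serves in collagen hydroxylation, read 14124, 11576 and 9772 with the scrambled hairpin against 16559, 1317 and 16932 with the CKS1B hairpin. Both A and C were above every scrambled array and array B was at 11.1% of their mean, so that the difference was -0.70 (SE 0.98) with 6 arrays and 0.52 (SE 0.22, limma adjusted p = 0.511) without array B, and 0.089 there after quantile normalization. PDIA3 (ERp57), the partner of CALR and CANX, read 3330.2, 1912 and 1762 with the scrambled hairpin against 4614, 344 and 1700.0 with the CKS1B hairpin. Its array C was just below the lowest scrambled array, A was above and B far below, for -0.67 (SE 0.85) and 0.32 (SE 0.41). PDIA4 (ERp72) read 2598, 2363 and 2012 with the scrambled hairpin against 3342, 822 and 1492 with the CKS1B hairpin. Arrays B and C were below and A above the scrambled range, for -0.52 (SE 0.52) and -0.049 (SE 0.32). The other PDIA4 probe set above the filter had arrays A and C above every scrambled array, for 0.027 and, without array B, 1.01. PDIA6, which acts on HSPA5 clients and on ERN1, differed by 0.24 and -0.13. By the probe set used it was, of the tested members, the highest on array B relative to its scrambled mean. That probe set read 17725 on array B, a value that counted in its choice as the brightest over the 6 arrays. The 3 other probe sets of PDIA6 above the filter read below all scrambled arrays there, and gave -0.79, -0.62 and -0.82 with 6 arrays. The first of them had a scrambled mean of 9248, against 8997 for the one used, and read 2328 on array B. ERO1B, which reoxidises PDI, read 19.3, 13.1 and 115 with the scrambled shRNA and 77.1, 344 and 41.3 with the CKS1B shRNA and was not tested.

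The translocon genes had the highest median of any role without array B, 0.49, with all 6 higher and none past the test. In 5 of them the groups were apart on the higher side, as in 13.6% of all genes. With 6 arrays 2 were higher and 4 lower. SEC61A1, the pore of the channel, read 2941, 2538 and 1776 with the scrambled hairpin against 3601, 1315 and 5299.8 with the CKS1B hairpin. The groups were apart on arrays A and C, which stood higher, and array B was below all scrambled arrays, and without array B the difference was 0.88 (SE 0.28, limma adjusted p = 0.46), against 0.31 (SE 0.55) with 6 arrays. Its other probe set above the filter gave 0.051 without array B. SSR1, the alpha subunit of the TRAP complex that aids insertion of some signal peptides, read 13087, 10522 and 12279 with the scrambled hairpin against 14361, 1271 and 27339 with the CKS1B hairpin. Array C was far above all the others and array A just above the scrambled arrays, and array B was at 10.6% of their mean.

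For SSR1 the difference with 6 arrays was -0.58 (SE 1.05), and without array B it was 0.73 (SE 0.28, limma adjusted p = 0.504), 0.21 after quantile normalization, and between -0.23 and 0.21 by its other probe sets. SSR3 (TRAP gamma) read 7958, 6730.2 and 5019.8 with the scrambled hairpin against 8277, 501 and 6187 with the CKS1B hairpin. Array A was just above and array C inside the scrambled range, for -1.12 (SE 0.98) with 6 arrays and 0.15 (SE 0.25) without array B. SEC61B, the beta subunit of the channel, read 9836, 10608 and 8669 with the scrambled hairpin against 13361, 1449 and 12843 with the CKS1B hairpin. Arrays A and C were above every scrambled array and B at 14.9% of their mean, for -0.62 (SE 0.86) and 0.44 (SE 0.20). The remaining TRAP subunits SSR2 and SSR4 were also above all scrambled arrays on A and C, by 0.46 and 0.52 without array B, and differed by -0.25 and 0.032 with it. The median of the role was 0.18 after quantile normalization without array B, where of its genes only SEC61A1 stayed apart.

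The signal peptidase genes were the lowest role on array B by the probe sets used. All 4 were lower with 6 arrays (median -0.78) and higher without array B (median 0.23), and none passed the test. Without array B the groups were apart on the higher side in 3 of them, and in 13.6% of all genes. SPCS2, an accessory subunit, read 11158, 11178 and 12189 with the scrambled hairpin against 12507, 557 and 13446 with the CKS1B hairpin. The 3 scrambled arrays and arrays A and C lay within a narrow band, with A and C at its top, while array B was at 4.84% of the scrambled mean, for -1.33 (SE 1.14) with 6 arrays and 0.17 (SE 0.20) without it. SPCS1, another accessory subunit, read 12296, 11501 and 11234 with the scrambled hairpin against 13458, 647 and 14898 with the CKS1B hairpin. Again arrays A and C topped the scrambled arrays, and the differences were -1.19 (SE 1.13) and 0.28 (SE 0.20). SPCS3, which is needed for the activity of the complex, read 5104, 4084 and 4641 with the scrambled hairpin against 5333, 1117 and 7443 with the CKS1B hairpin. It differed by -0.37 (SE 0.69) with 6 arrays and was apart on the higher side without array B, by 0.46 (SE 0.23, limma adjusted p = 0.545). The catalytic subunit SEC11C differed by -0.16 and 0.068, with overlap. After quantile normalization the median of the role without array B was -0.12, and none of its genes was apart.

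The degradation genes did not separate the groups in either fit. HERPUD1, a stress-induced organiser of the retrotranslocation complex, read 4678, 5617 and 4257 with the scrambled hairpin against 5671, 847 and 4503 with the CKS1B hairpin. Only array B lay below the scrambled range and only array A just above it, for -0.78 (SE 0.70) and 0.069 (SE 0.22). SEL1L, the scaffold of the ligase SYVN1, read 3599, 3642 and 2989 with the scrambled hairpin against 4485, 913 and 3581 with the CKS1B hairpin. Array C lay inside the scrambled range, A above and B below, for -0.47 (SE 0.60) and 0.24 (SE 0.22). EDEM1, which helps mark misfolded glycoproteins for disposal, was higher on array B and differed by 0.19 and -0.067.

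Of the antibody-secretion genes, MZB1 was lower and JCHAIN higher on every CKS1B shRNA array, though neither passed the test. MZB1 is an ER protein of plasma and marginal zone B cells that aids antibody assembly with HSP90B1. It read 2655, 3429 and 2403 with the scrambled hairpin against 1178, 443 and 2080.3 with the CKS1B hairpin. All CKS1B shRNA arrays were below all scrambled arrays, with C the nearest, and the means were 2829 ± 535 and 1234 ± 820.3 (SD, n = 3). The difference was -1.43 (SE 0.55, limma adjusted p = 0.933) with 6 arrays and -0.83 (SE 0.29, limma adjusted p = 0.481) without array B. Its other probe set gave -1.12 and -0.75, with the groups apart as well.

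JCHAIN, the chain that joins IgA and IgM units into polymers, read 15689.9, 13131 and 16370.3 with the scrambled hairpin against 17619.7, 19879.8 and 37717 with the CKS1B hairpin. Every CKS1B shRNA array was above every scrambled array, C by far the most, and the means were 15064 ± 1708 and 25072 ± 11009 (SD, n = 3). The difference was 0.66 (SE 0.59, limma adjusted p = 0.933) and, without array B, 0.78 (SE 0.31, limma adjusted p = 0.504), which quantile normalization lowered to 0.16. After quantile normalization the groups of JCHAIN overlapped with 6 arrays (0.31) and without array B, while those of MZB1 stayed apart in both. Centring on the array median left neither apart with 6 arrays, and without array B it left JCHAIN apart but not MZB1. FKBP11, a prolyl isomerase of secretory tissues, differed by -0.67 with 6 arrays and 0.23 without array B. ELL2, an elongation factor that favours the secreted form of antibody heavy chain messages, differed by -0.66 and 0.055. By the probe sets used, array C of both was above the scrambled arrays and arrays A and B below. Other ELL2 probe sets above the filter had array C below every scrambled array, and gave -0.65 and -0.47 without array B. Those of FKBP11 gave 0.19 and -0.24 there.

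Of the stress sensors, by the probe sets used, ATF6 read low on array B like most secretory genes, and the kinases EIF2AK3 and ERN1 read high there. Other probe sets of ATF6 read 2299, 1034.4 and 27.0 on array B, against scrambled means of 876, 438 and 337. Those of ERN1 read 467 and 124 there, against scrambled means of 278 and 219. ATF6, which is cut in the Golgi to free a transcription factor, read 3064, 3126 and 1903 with the scrambled hairpin against 3631, 360.3 and 3280.4 with the CKS1B hairpin. Compared with all scrambled arrays, A and C were above and array B below, for -0.68 (SE 0.84) with 6 arrays and 0.39 (SE 0.26, limma adjusted p = 0.637) without array B, and all 4 of its probe sets were higher there. EIF2AK3, the kinase that slows translation, read 912, 1246 and 676 with the scrambled hairpin against 828, 1539 and 494 with the CKS1B hairpin. Array B was the highest and array C the lowest of the 6, and the differences were -0.092 (SE 0.46) and -0.51 (SE 0.34). ERN1, the nuclease that splices XBP1 mRNA, read 277, 457 and 227 with the scrambled hairpin against 316, 550.1 and 205 with the CKS1B hairpin. Its scrambled arrays spanned most of the range of the other group, and it differed by 0.10 (SE 0.48) and -0.26 (SE 0.43).

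Probe sets of 1 gene agreed far less on array B than on arrays A and C. For the 24 members with at least 2 probe sets above the filter, each probe set's value was taken as a percentage of its own scrambled mean, and the highest was divided by the lowest. The median of that ratio was 8.34 on array B, 1.38 on array A and 1.77 on array C, and the highest were 280.2 (DNAJC3), 3.01 and 4.01. HSPA5 is an example, since its dimmer probe set read 118.6, 149 and 242 with the scrambled hairpin and 278, 858 and 300.0 with the CKS1B hairpin. That probe set was therefore highest on array B, where the brighter one was lowest. Without array B, 31 of the 50 other probe sets had the sign of the one used, and in 10 of the 24 members all did. The probe sets used for HSP90B1, CALR, PDIA6 and SPCS3 carry the suffix that marks possible binding to other sequences, so their values may include related transcripts.

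**Figure D4:**
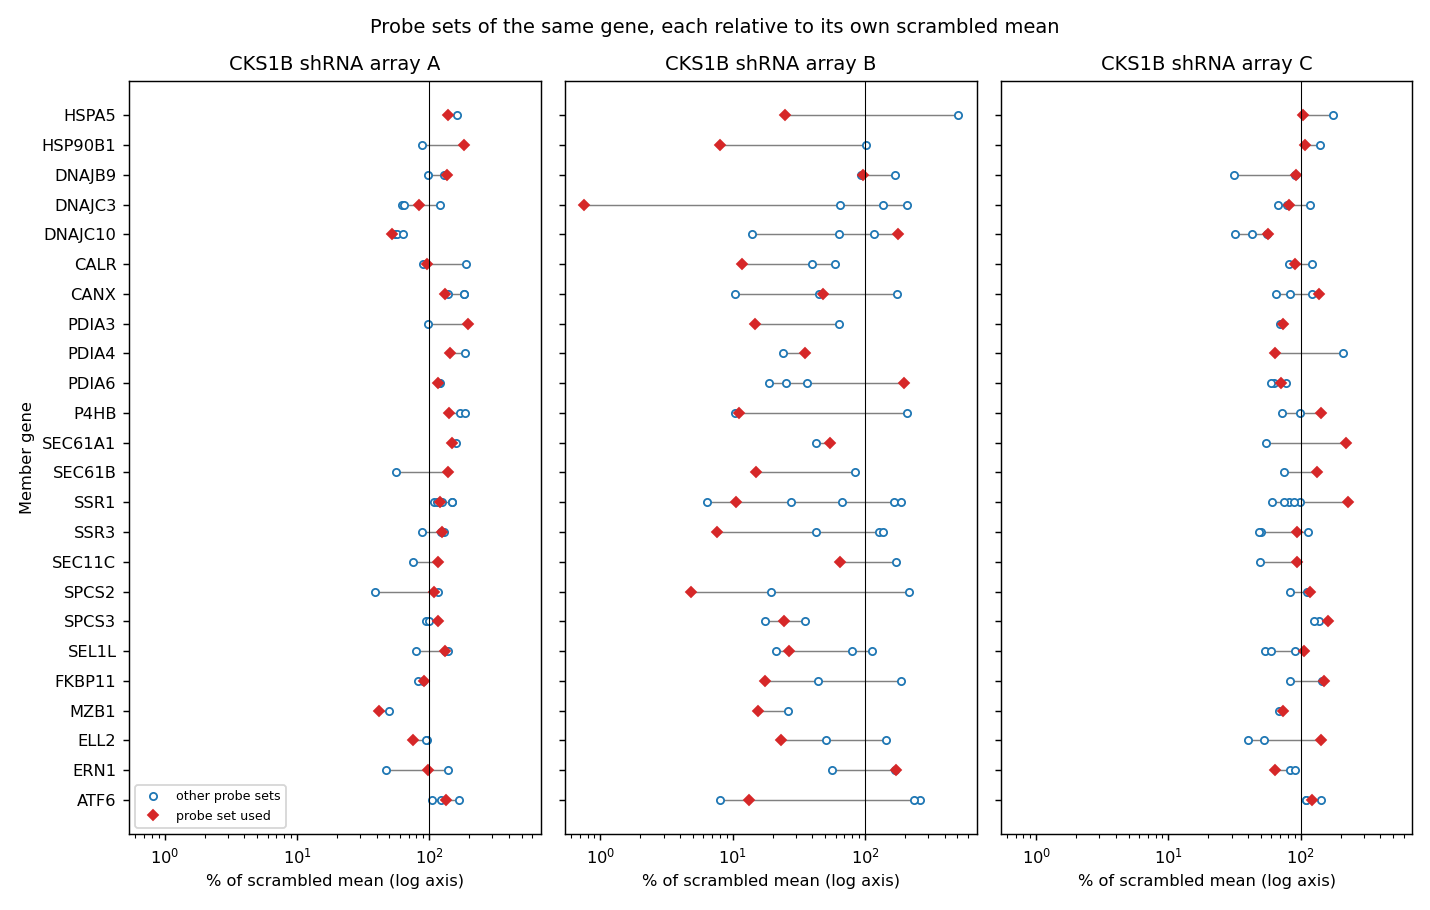
Value of each probe set as a percentage of its own scrambled mean (log axis) on the 3 CKS1B shRNA arrays, for members with at least 2 probe sets above the filter; each point is 1 probe set. The spread within a gene is widest on array B, where the median ratio of highest to lowest was 8.34, while arrays A and C had 1.38 and 1.77.

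Other genes of the same pathway, from 6 lists of 99 genes that hold no member, were also more often lower with 6 arrays and more often higher without array B, but with 6 arrays they lay near all genes. Of 94 tested, 37 were higher and 57 lower with 6 arrays (median -0.17), and 68 higher and 26 lower without array B (median 0.19), and none passed the test. Over all 12663 genes, 5609 were higher and 7054 lower with 6 arrays, and 5893 and 6770 without array B. An unadjusted p under 0.05 was reached by 2 and 13 of them, against 2.95% and 9.49% of all genes. Without array B the groups were apart on the higher side in 33 and on the lower side in 2, SEC23A and UBE2J1, against 13.6% and 14.4% of all genes. This too depended on the scaling. After quantile normalization without array B, fewer were apart on the higher side and more on the lower side. Those added on the lower side were ERP29, ERO1A, TRAM1, SRP72, SAR1A, XBP1 and ATF4.

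SEC23A, a coat subunit of the COPII vesicles that leave the ER, read 1849, 2220.3 and 1447 with the scrambled hairpin against 683, 1262 and 776 with the CKS1B hairpin. All CKS1B shRNA arrays were below all scrambled arrays, and the difference was -1.04 (SE 0.36, limma adjusted p = 0.933) with 6 arrays and -1.30 (SE 0.26, limma adjusted p = 0.263) without array B. Of 21 ER to Golgi transport genes tested, 7 were higher with 6 arrays and 18 without array B. The cargo receptor TMED2 differed by 0.36 and 0.71 in these fits, and the COPII GTPase SAR1A by -0.66 and -0.35. UBE2J1, the ubiquitin-conjugating enzyme anchored in the ER membrane, read 9584, 8617 and 7141 with the scrambled hairpin against 6816, 1889 and 5881 with the CKS1B hairpin. It too lay below on all CKS1B shRNA arrays, by -0.98 and -0.40. Among the 17 degradation genes tested, UBE2G2 differed by 0.49 and 0.73 and UFD1, a cofactor of the extraction ATPase, by -0.19 and 0.84, and 6 and 13 were higher in the respective fits.

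In the list of targeting and glycosylation genes, 9 of 21 tested were higher with 6 arrays and 13 without array B. SRP14, a subunit of the signal recognition particle, read 12580.0, 12377 and 11914 with the scrambled hairpin against 15445, 49.6 and 20998 with the CKS1B hairpin. Array B was at 0.40% of the scrambled mean, and arrays A and C were above every scrambled array, for -2.15 and 0.55. SRP72, also of the particle, differed by -1.15 and -0.17, its receptor subunit SRPRA by 0.62 and 0.38, and DDOST of the oligosaccharyltransferase by -0.76 and 0.60. Of 8 further oxidoreductases, 4 and 7 were higher. TXNDC12 (ERp18) was the one with the smallest p without array B, and it read 2528, 2256 and 1802 with the scrambled hairpin against 5341, 1023 and 3751 with the CKS1B hairpin. Its arrays A and C were above every scrambled array and B below, for 0.33 and 1.04 (limma adjusted p = 0.372 without array B). TMX1, TMX3 and QSOX1 differed by 0.74, 0.25 and 0.44 without array B and by 0.30, 0.74 and 0.70 with it. Of 15 further folding genes, 6 and 10 were higher in these fits. The prolyl isomerases PPIB and FKBP14 differed by -0.13 and 0.96 with 6 arrays and by 0.72 and 0.57 without array B, while the translocon-associated SERP1 differed by -0.28 and 0.54 and the chaperone-like ERP29 by -1.19 and -0.24.

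The 12 transcription factors and regulators of the stress response did not lean one way without array B, with 7 higher, 5 lower and a median of 0.040. XBP1, the plasma cell factor that drives many of the members, read 7508, 7779 and 5375 with the scrambled hairpin against 5779.5, 2361 and 4814 with the CKS1B hairpin. Array A lay just inside the scrambled range, arrays B and C below it, and the difference was -0.75 (SE 0.48) with 6 arrays and -0.36 (SE 0.23, limma adjusted p = 0.625) without array B. PPP1R15A (GADD34) and PPP1R15B, which restart translation, differed by 0.55 and -0.21 without array B and by 0.31 and -0.83 with it. Of the antibody genes, 4 of 7 were tested. The kappa constant gene IGKC read 14403, 15995 and 18036 with the scrambled hairpin against 18149, 1177 and 53806 with the CKS1B hairpin. Array C was at 333% of the scrambled mean and array B at 7.29%, for -0.61 and 0.96, and 0.26 without array B after quantile normalization. IGHG1 and IGHM differed by 0.87 and 0.44 with 6 arrays and by 0.57 and 0.010 without array B. Antibody genes share sequence, so their probe sets may read more than 1 gene, and none of them passed the test.

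Of the 5 tested members with ERSE in their promoter window, 4 were lower with 6 arrays and 4 were higher without array B. With 6 arrays and without array B the differences were -0.48 and 0.28 for HSPA5, -0.86 and 0.50 for HSP90B1, 0.18 and 0.63 for CRELD2, -1.05 and -0.058 for CALR, and -0.055 and 0.44 for CANX. Outside the list, 5 tested genes also hold ERSE. With 6 arrays and without array B, XBP1 differed by -0.75 and -0.36, SERP1 by -0.28 and 0.54, TMEM120A by 1.74 and 1.92, EIF2A by -0.39 and -0.14, and FICD by 0.46 and -0.042. DNAJC10 and HYOU1, the members with UPRE, differed by -0.87 and 0.0043 there.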

How the data were processed

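Total RNA of JJN3 cells was measured on 6 Affymetrix U133 Plus 2.0 arrays, grouped by their labels. Per the submitters' processing notes the authors used MAS5, and the deposited values are linear intensities. The settings and version of MAS5 were not given in the sources used here. All deposited intensities have a 2% trimmed mean of 500 on every array, a scaling that does not equalise the width of the distributions.

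Of 54675 probe sets, 62 controls were left out. Of the other 54613, 41091 were annotated to 1 gene, 1801 to several and 11721 to none, and symbols were updated through Entrez identifiers, of which those of 41037 probe sets were in the RefSeq gene table (GRCh38.p14). Genes came from probe sets of 1 gene only, with the brightest kept by mean log2(value + 16) over the 6 arrays, and genes under the median of all probe sets were left out. The comparison used lmFit and eBayes with trend (limma 3.58.1, R 4.3.3) over all 12663 genes, with Benjamini-Hochberg adjustment and a threshold of 0.05. The fit without CKS1B shRNA array B kept the same probe sets and filter, and there the spread of the 2 remaining arrays is taken to be like that of the scrambled ones. Scripts were tested on simulated data. Figures used Python 3.11.15 and matplotlib 3.10.9.

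Values on every array are given for CKS1B, HSPA5, HSP90B1, JCHAIN, MZB1 and, per role, the 2 members of smallest p in each fit, and in each related list the 2 genes of smallest p in each fit are named. Other genes with values were singled out after their values were seen. The members and lists were chosen with earlier results of these data known. Promoter sequences are from RefSeq. Protein sequences were not used here. The alternatives tried are named in the closing section.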

Additional observations from a re-analysis of the deposited data

How the results depend on the processing

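No member passed the limma test in any of the 21 settings run, and leaving out CKS1B shRNA array B moved the results most. The directions of all members tested held with pseudocounts of 1 and 64, and without array B when probe sets and filter were chosen over the other 5 arrays. They were also the same without a filter and with a filter at the 70th percentile. The filter could not change them, because each difference is fitted per gene on the same probe set. With the letter as a replicate block 0 genes passed limma's adjusted threshold, so the block changed no call. The median of the members was -0.50, which a balanced block cannot alter. What the letters stand for is not stated in the labels. Deviations of same-lettered arrays correlated at 0.40 for A, -0.081 for B and -0.080 for C. For arrays of different letters the correlations ran from -0.37 to 0.26. Whether the letters mark pairs was not tested. Over all genes, the count past the threshold was 0 with 6 arrays and 4 with array weights. Leaving out 1 array at a time gave 0 to 5, and the 5 came without CKS1B shRNA array B. From that 5, it went to 1 without both arrays of letter B, 2 with quantile normalization, 20 with centring and 1 with the mean of probe sets. Members with groups apart numbered 3 with 6 arrays, 0 with centring, 5 with probe sets whose name has no suffix, and 3 to 17 with 1 array left out (8 without CKS1B shRNA array A, 17 without B and 7 without C), and of the 17 without array B quantile normalization left 6. The median of the members ran from -0.92 to 0.24 with 1 array left out. The CKS1B difference was -3.80 (limma adjusted p = 2.81e-05) with array weights and -4.41 to -3.63 with 1 array left out. The sign of a log2 difference turned as follows, for members of which none passed the test. With array weights it was 0.15 for HSPA5, 0.37 for HSP90B1, 0.0047 for HYOU1, 0.58 for SDF2L1, 0.31 for MANF, 0.36 for CANX, 0.29 for PDIA3, -0.065 for PDIA6, 0.31 for P4HB, 0.27 for SEC61B, 0.53 for SSR1, 0.41 for SSR2, 0.075 for SEC11C, 0.10 for SPCS1, 0.040 for SPCS2, 0.34 for SPCS3, 0.13 for SEL1L, 0.058 for FKBP11, -0.34 for ERN1 and 0.12 for ATF6. With quantile normalization it was 0.024 for DNAJC10 and 0.16 for EIF2AK3, and with centring -0.12 for DNAJB9, -0.057 for CRELD2, -0.20 for SSR4, -0.044 for EDEM1 and -0.13 for ERN1. With the mean of probe sets it was 0.40 for HSPA5, -0.010 for DNAJB9, -0.50 for PDIA6, -0.010 for SEC61A1, 0.28 for HERPUD1, -0.0010 for ERN1 and 0.42 for EIF2AK3, and with probe sets without a suffix 0.67 for CANX, 0.027 for PDIA4, -0.82 for PDIA6, 0.30 for SSR1 and 0.28 for SSR3. Leaving out 1 array at a time gave -0.96 to 0.28 for HSPA5, -1.72 to 0.50 for HSP90B1, -0.69 to 0.0043 for HYOU1, -0.062 to 0.27 for DNAJB9, -0.87 to 0.0054 for DNAJC10, -1.37 to 0.64 for SDF2L1, -0.18 to 0.63 for CRELD2, -0.79 to 0.32 for MANF, -0.32 to 0.44 for CANX, -1.52 to 0.32 for PDIA3, -0.13 to 0.60 for PDIA6, -1.32 to 0.52 for P4HB, -0.12 to 0.88 for SEC61A1, -1.16 to 0.44 for SEC61B, -1.47 to 0.73 for SSR1, -0.68 to 0.46 for SSR2, -1.85 to 0.15 for SSR3, -0.35 to 0.52 for SSR4, -0.36 to 0.068 for SEC11C, -1.97 to 0.28 for SPCS1, -2.10 to 0.17 for SPCS2, -0.90 to 0.46 for SPCS3, -1.29 to 0.069 for HERPUD1, -0.067 to 0.42 for EDEM1, -0.90 to 0.24 for SEL1L, -1.30 to 0.23 for FKBP11, -1.25 to 0.055 for ELL2, -0.26 to 0.42 for ERN1, -0.51 to 0.30 for EIF2AK3 and -1.25 to 0.39 for ATF6. Relative to the values without array B, leaving out both arrays of letter B gave -0.059 for HYOU1, 0.046 for CALR and 0.020 for ERN1, and quantile normalization -0.031 for HSPA5, -0.21 for HYOU1, -0.080 for SSR3, -0.15 for SEC11C, -0.10 for SPCS1, -0.18 for SPCS2, -0.10 for HERPUD1 and -0.17 for ELL2. Of 2 alternatives chosen after seeing the data, centring gave 0.14 for CALR, 0.15 for PDIA4, 0.065 for PDIA6 and 0.13 for EDEM1, and the mean of probe sets -0.13 for DNAJB9, 0.14 for CALR, -0.16 for PDIA3, 0.48 for PDIA4, -0.041 for SEC61B, -0.11 for SSR3, -0.29 for SEC11C, -0.11 for SPCS2, -0.037 for SEL1L and -0.39 for ELL2. Apart from the settings that use fewer arrays or other probe sets, the cause was not tested. Signal over background is not given in the deposited values, so dim probe sets carry no detection call.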
